A study of Mus musculus with 6 samples.

Results

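The NRF2 targets and glutathione enzymes described here are 10 genes named by symbol, namely Gsto1, Gclc, Gclm, Nqo1, Hmox1, Txnrd1, Srxn1, Gsta4, Slc7a11 and Gpx2. All 10 were found among the 18437 genes of the table, and all 10 passed the filter on low values. They were chosen by symbol with the measured LIGHT and control TPM of this series already known. Expression was measured by bulk RNA-seq of tongue tumours in C57BL/6 mice. The LIGHT group (3 libraries) came from injection of 4MOSC1-LIGHT cells, which overexpress LIGHT. LIGHT is a ligand of the TNF superfamily, and its gene is Tnfsf14. The control group (3 libraries) came from injection of 4MOSC1-con cells. 4MOSC1 is a murine oral squamous cell carcinoma line derived from carcinogen-induced tongue lesions, and both groups were grown in the same host strain and at the same site. The age of the animals, the promoter driving LIGHT and the number of clones were not stated in the labels. The study's title concerns tertiary lymphoid structures, and the comparison asks what LIGHT in the tumour cells does to the tumour transcriptome.

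NRF2, encoded by Nfe2l2, is a transcription factor that is held at low levels by KEAP1, an adaptor that brings it to a ubiquitin ligase for destruction. Oxidants and electrophiles modify KEAP1, NRF2 then accumulates, pairs with a small MAF protein and binds antioxidant response elements near genes for glutathione synthesis, thioredoxin recycling, quinone reduction and haem breakdown. In squamous epithelia and their carcinomas the pathway is known for protection against reactive oxygen species and for effects on cornification.

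The values are TPM, a share of transcripts corrected for gene length, so levels can be set beside each other between genes. TPM keep no sequencing depth, and the depth behind each value is unknown. A difference is given as LIGHT minus control on the log2(TPM + 1) scale, with its standard error (SE) from limma across all tested genes. Since the 10 genes were chosen with this same contrast known, their differences are a description and carry no p-value. Between 13183 and 13271 genes reached 1 TPM in the LIGHT libraries and between 12713 and 12838 in the control libraries. limma called 2325 of 13167 tested genes higher and 712 lower in LIGHT tumours, and the median difference of all tested genes was 0.09. With trimmed-mean scaling 1637 were higher and 2005 lower, at a median of -0.04, and after quantile normalization 1399 were higher and 1811 lower, at a median of -0.04. The scaling thus sets which direction holds more calls. Tnfsf14 was at 26.2, 25.9 and 23.9 TPM in the LIGHT libraries, against 0.66, 0.53 and 0.79 TPM in the control libraries, as the labels say.

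Promoter windows (250 bases before to 50 after a listed start site, RefSeq, GRCm38.p6) were held for 7 of the 10 genes, with 9 windows in all. They were searched on both strands for TGACNNNGC, the core of the antioxidant response element. The stretches that follow are shown because they hold the core, which lies on the opposite strand in each and is in capitals.
Gclm, chr3:122245398-122245456, plus strand: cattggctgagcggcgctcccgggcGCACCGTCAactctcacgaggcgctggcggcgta
Txnrd1, chr10:82859089-82859147, plus strand: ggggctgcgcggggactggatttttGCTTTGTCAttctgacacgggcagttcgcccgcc
Srxn1, chr2:152105527-152105573, plus strand: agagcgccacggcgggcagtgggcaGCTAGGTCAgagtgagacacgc
The core began at position -134 of the listed Gclm start site, -92 of a Txnrd1 start and 28 of the Srxn1 start. The listed Gclm start site lies downstream of the first position of the gene given further on, while the Gclm stretch shown lies upstream of that position. The Txnrd1 start that carries the core is 1 of 3 listed for that gene. The windows of Gsto1, Slc7a11, Nqo1 and Gpx2 held no match, and Gclc, Hmox1 and Gsta4 had no entry. Many described elements of this pathway lie outside such a window, so a missing match says only that these letters are not in it. The core was present in 12.4% of all 32851 windows, and in 17.9% of the 156 windows of the related genes described further on. It can overlap TGACTCA, the AP-1 motif. The Srxn1 window held that motif as well, but outside the stretch shown and apart from the core in capitals. The window of Gsto1, the gene with the greatest difference of the 10, is shown whole for comparison.
Gsto1, chr19:47854723-47855022, plus strand: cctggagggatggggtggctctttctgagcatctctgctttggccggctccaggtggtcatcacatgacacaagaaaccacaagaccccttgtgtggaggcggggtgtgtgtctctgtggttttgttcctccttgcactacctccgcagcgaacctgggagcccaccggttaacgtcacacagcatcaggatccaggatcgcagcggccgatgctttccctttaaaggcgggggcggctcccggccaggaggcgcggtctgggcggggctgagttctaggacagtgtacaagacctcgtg

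The 10 genes did not move as a block. The transferases Gsto1 and Gsta4 and the ligase subunits Gclc and Gclm were lower in LIGHT tumours in every library, while Nqo1, Hmox1, Txnrd1, Srxn1 and Slc7a11, among the most used readouts of NRF2 activity, had overlapping groups. Among these 5 Srxn1 was the furthest apart, with a mean 8.15% lower in LIGHT tumours. Gpx2 had the higher mean in LIGHT tumours, with overlapping groups. At an adjusted p under 0.05 over all tested genes, 4 of the 10 were among the lower calls, where 5.41% of all tested genes were, and 0 were among the higher calls, where 17.7% were. The counts at an unadjusted p under 0.05 were also 4 and 0. The same 4 had all 3 LIGHT libraries below all 3 control libraries, as 11.6% of tested genes did, and 0 had all 3 above, as 29.6% did. Since the genes were chosen with this contrast known, nothing is read from these counts. The median difference of the 10 was -0.07. The count of lower calls was 2 without control replicate 3, with Gsta4 and Gclm then not called. It was 3 without LIGHT replicate 2, LIGHT replicate 3 or control replicate 1, and with no filter on low values. The call lost in each of these was that of Gclm. Gsto1 and Gclc were called in every setting.

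**Figure D1:**
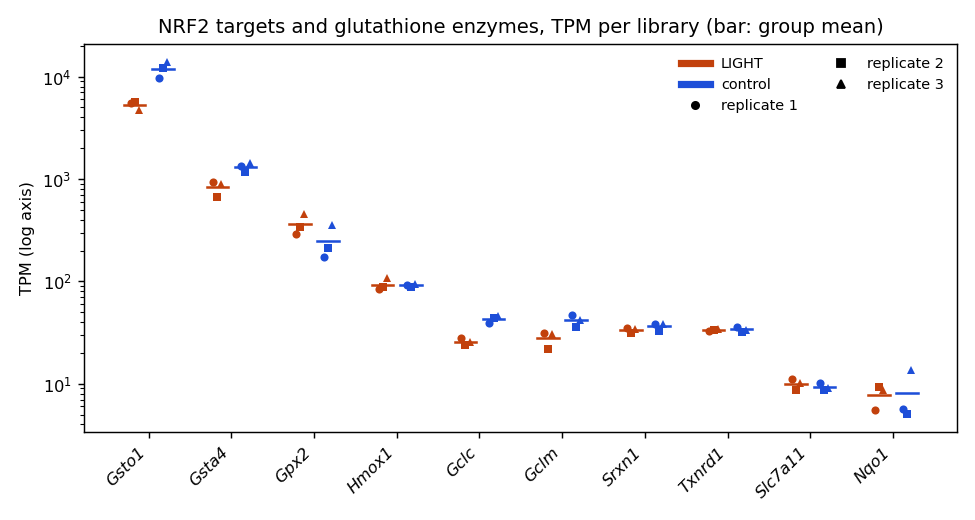
TPM per library (log axis) of the 10 genes, ordered by control mean, with LIGHT (orange) left of control (blue), 1 marker per library and a bar at the group mean. The groups separate for Gsto1, Gsta4, Gclc and Gclm and overlap for the other 6 genes.

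Levels spanned more than 3 orders of magnitude. In LIGHT tumours the order by mean was Gsto1, Gsta4, Gpx2, Hmox1, Srxn1, Txnrd1, Gclm, Gclc, Slc7a11 and Nqo1. In control tumours Gsto1, Gsta4, Gpx2 and Hmox1 led in the same order and were followed by Gclc, Gclm, Srxn1, Txnrd1, Slc7a11 and Nqo1. Each of the leading 4 was clear of its neighbours in every library of both groups. In control tumours the ranges of Gclc and Gclm overlapped, as did those of Gclm, Srxn1 and Txnrd1, and the position of Nqo1 beside Slc7a11 was not settled in either group. In LIGHT tumours the range of Srxn1 overlapped that of Txnrd1 and just met that of Gclm, and those of Gclm and Gclc overlapped. The ligase subunits thus stood above Srxn1 and Txnrd1 by mean in control tumours and below them in LIGHT tumours.

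Gsto1 encodes glutathione S-transferase omega 1, a cysteine-type transferase that also removes glutathione from proteins and reduces dehydroascorbate. It occupies positions 47854973 to 47864790 of chromosome 19 in GRCm38.p6. It was at 5521, 5689 and 4763 TPM in LIGHT libraries, against 9657, 12015 and 14020 TPM in control libraries. Every LIGHT library lay below every control library, with the 3 LIGHT values close together and the control values spread more widely. The mean was 5324 ± 493 TPM in LIGHT and 11897 ± 2184 TPM in control tumours (SD, n = 3 each), a difference of -1.15 (SE 0.15). In control tumours Gsto1 ranked 5 of all genes by mean TPM, and it made up 0.532% of all TPM in LIGHT libraries and 1.19% in control libraries on average. The adjacent gene Gsto2, the other omega-class transferase, was near the floor, at 2.15 ± 0.26 TPM in LIGHT and 2.28 ± 0.75 TPM in control tumours, with overlapping groups.

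Gsta4 encodes an alpha-class transferase that conjugates hydroxynonenal, an aldehyde product of lipid peroxidation. It occupies positions 78191966 to 78209349 of chromosome 9. Its level was 936, 662 and 896 TPM in LIGHT libraries, against 1330, 1181 and 1428 TPM in control libraries. LIGHT replicate 2 was the lowest of the 6, and the groups did not overlap. The difference was -0.67 (SE 0.14).

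Gclc and Gclm encode the catalytic and modifier subunits of glutamate-cysteine ligase, which catalyses the rate-limiting step of glutathione synthesis. Gclc (chromosome 9, 77754535 to 77794489) was at 27.9, 23.7 and 25.7 TPM in LIGHT libraries, against 38.9, 44.3 and 45.9 TPM in control libraries. Both sets were tight and well apart, with means 25.8 ± 2.1 TPM in LIGHT and 43.0 ± 3.7 TPM in control tumours (SD, n = 3 each) and a difference of -0.72 (SE 0.10). Gclm (chromosome 3, 122245487 to 122267215) was at 31.2, 21.7 and 30.9 TPM in LIGHT libraries, against 46.7, 35.7 and 42.2 TPM in control libraries. Its difference was -0.56 (SE 0.16), and the nearest libraries, LIGHT replicate 1 and control replicate 2, were close to each other. The ratio of Gclc to Gclm within a library, which no scaling changes, was 0.895, 1.09 and 0.832 in LIGHT and 0.833, 1.24 and 1.09 in control libraries, with overlapping groups. Gss, glutathione synthetase, the next enzyme of the pathway, was at 45.1 ± 2.9 TPM in LIGHT and 48.5 ± 0.6 TPM in control tumours and was not called as deposited (limma adjusted p = 0.378), but was called lower with trimmed-mean scaling. The ratio of Gclc to Gss was 0.577, 0.540 and 0.598 in LIGHT libraries, against 0.791, 0.922 and 0.949 in control libraries, so the ligase subunit was lower relative to the synthetase in each LIGHT library. The ratio of Gclm to Gss was 0.645, 0.495 and 0.719 in LIGHT libraries, against 0.950, 0.744 and 0.872 in control libraries.

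Slc7a11 encodes xCT, the light chain of the cystine-glutamate exchanger that brings in cystine for glutathione. It was at 11.0, 8.70 and 10.1 TPM in LIGHT libraries, against 10.3, 8.61 and 9.14 TPM in control libraries. The groups overlapped and the difference was 0.08 (SE 0.12), close to the median of all tested genes. Its heavy chain partner Slc3a2 was at 151 ± 5.1 TPM in LIGHT and 130 ± 7.2 TPM in control tumours and was not called (limma adjusted p = 0.0796).

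Txnrd1 and Srxn1 keep the thioredoxin and peroxiredoxin systems reduced. Txnrd1, the cytosolic thioredoxin reductase, was at 32.5, 33.2 and 34.2 TPM in LIGHT libraries, against 36.0, 31.8 and 33.8 TPM in control libraries. The LIGHT values fell inside the control range, and the difference was -0.02 (SE 0.08). Srxn1, sulfiredoxin, which repairs overoxidised peroxiredoxins, was at 34.9, 31.2 and 34.4 TPM in LIGHT libraries, against 38.1, 32.8 and 38.5 TPM in control libraries. The groups overlapped, and the difference was -0.12 (SE 0.10).

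Nqo1, the quinone reductase often used to mark NRF2 activity, was at 5.58, 9.23 and 8.60 TPM in LIGHT libraries, against 5.63, 5.02 and 13.5 TPM in control libraries. Control replicate 3 held more than any other library, and the other control libraries were close to LIGHT replicate 1. The difference was 0.05 (SE 0.34), the widest error of the 10. Hmox1, haem oxygenase 1, which opens the haem ring and releases iron, carbon monoxide and biliverdin, was at 84.3, 88.1 and 107 TPM in LIGHT libraries, against 92.8, 87.8 and 94.7 TPM in control libraries. LIGHT replicate 3 was the highest and LIGHT replicate 1 the lowest of the 6, and the difference was 0.01 (SE 0.10).

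Gpx2 encodes an epithelial glutathione peroxidase, a selenoprotein. It was at 292, 336 and 454 TPM in LIGHT libraries, against 175, 214 and 356 TPM in control libraries. Replicate 3 was the highest in each group, and control replicate 3 exceeded 2 of the LIGHT libraries. The difference was 0.58 (SE 0.27). In the fit described here the gene was not called, and it was called without control replicate 3.

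**Figure D2:**
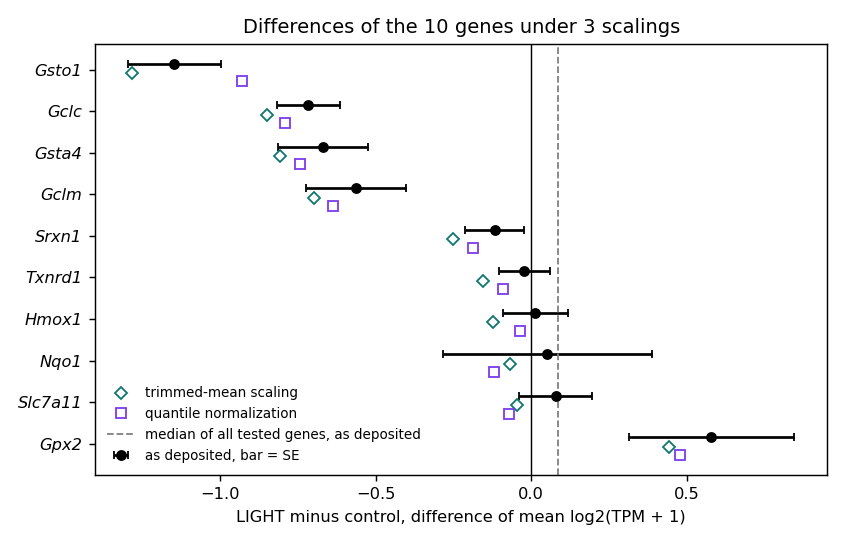
Difference between LIGHT and control in mean log2(TPM + 1) for each of the 10 genes, as deposited (black, with SE) and after 2 other scalings (open symbols), with the median of all tested genes as a dashed line. Gsto1, Gclc, Gsta4 and Gclm lie left of 0 under all 3 scalings and Gpx2 lies right of it, while the other 5 lie between -0.25 and 0.08.

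Under the other scalings Gsto1 was at -1.28 (trimmed mean) and -0.93 (quantile), Gclc at -0.85 and -0.79, Gsta4 at -0.81 and -0.74, and Gclm at -0.70 and -0.64. Hmox1, Nqo1 and Slc7a11, which were just above 0 as deposited, were just below it under both other scalings. Gpx2 was at 0.44 and 0.48.

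The tumours are tissue, so fewer cells of a type and less RNA per cell cannot be told apart. All 12 basal keratinocyte markers were tested and 0 were called in either direction (limma, adjusted p under 0.05; at an unadjusted p under 0.05, 0 were higher and 2 lower), but their summed level was 12196 to 16133 TPM in LIGHT libraries and 16269 to 19030 TPM in control libraries, without overlap. It was lowest in LIGHT replicate 2, which was also the lowest of the 6 libraries for Gclc, Gclm, Gsta4 and Srxn1. The separation of this sum rested on Krt14, a basal keratin and its most abundant member, and on Krt15, since without either of them the groups overlapped. Krt14 and Trp63, the basal factor p63, lay lower in every LIGHT library and were not called, while Krt5, another basal keratin, had overlapping groups. Set against 1000 TPM of the 12 markers summed within each library, Gsto1 was at 342, 466 and 304 in LIGHT and 507, 725 and 862 in control libraries, and Gclc at 1.73, 1.94 and 1.65 in LIGHT and 2.04, 2.67 and 2.82 in control libraries, without overlap. The ratios of Gsta4 and Gclm to the sum did not overlap either. With single markers as the denominator, an alternative chosen after seeing the data, the outcome depended on the marker. All 3 LIGHT ratios lay below all 3 control ratios with 4 of the 12 markers for Gsto1, 8 for Gsta4, 3 for Gclc and 7 for Gclm, and overlapped with the others. Against 1000 TPM of Krt14, Gsto1 was at 559, 813 and 482 in LIGHT and 774, 1128 and 1258 in control libraries, and Gclc at 2.83, 3.39 and 2.61 in LIGHT and 3.12, 4.16 and 4.12 in control libraries, and for both LIGHT replicate 2 was above control replicate 1. Against Krt5 the ratios of all 4 genes did not overlap.

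Among other cell types, 7 of 10 macrophage markers lay higher in every LIGHT library (summed level 998 to 1354 TPM in LIGHT and 640 to 725 TPM in control libraries), as did 10 of 10 T cell markers (255 to 308 TPM in LIGHT and 67.6 to 164 TPM in control libraries), where 29.6% of all tested genes did. Of the skeletal muscle markers 4 of 14 did, a share near that of all tested genes, and their sums overlapped (5012 to 8912 TPM in LIGHT and 3241 to 5608 TPM in control libraries). The 8 fibroblast markers summed to 619 to 797 TPM in LIGHT and 423 to 580 TPM in control libraries, and 1 of them, Thy1, lay higher in every LIGHT library. Mouse T cells express Thy1 too, and without it the sums were 447 to 636 TPM in LIGHT and 364 to 517 TPM in control libraries, with overlap. Summed neutrophil markers (420 to 2962 TPM in LIGHT and 1376 to 1771 TPM in control libraries) and red blood cell markers (119 to 2086 TPM in LIGHT and 70.0 to 453 TPM in control libraries) overlapped. No marker with a row in the table was at 0 in every library. The part of these cell types in the differences was not tested.

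**Figure D3:**
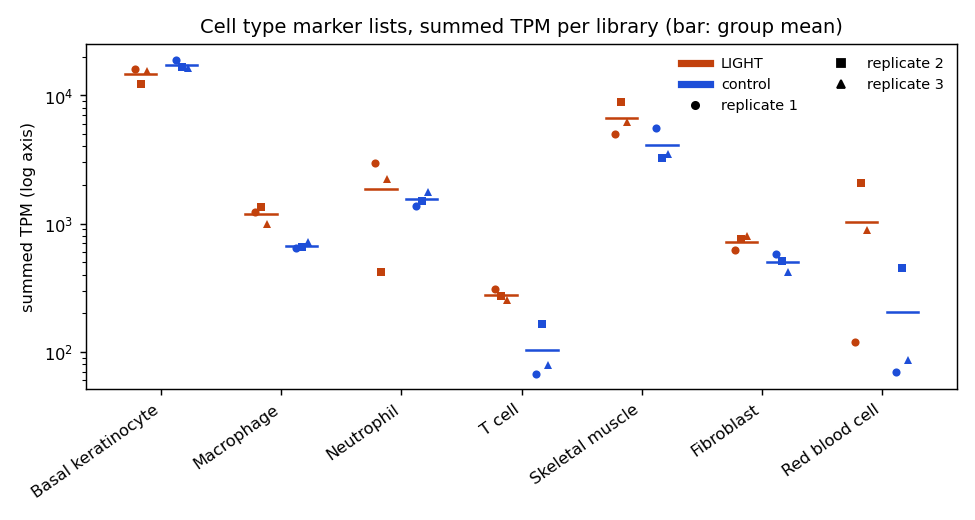
Summed TPM per library (log axis) of 7 cell type marker lists, LIGHT (orange) left of control (blue), with a bar at the group mean. LIGHT libraries are above control libraries for macrophage and T cell markers and, through Thy1, for fibroblast markers, and below them for basal keratinocyte markers, where the groups overlap without Krt14. The other lists overlap.

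Around the 10 genes, 135 genes of the same and adjoining pathways were listed in 8 groups by textbook membership, 134 were found and 123 passed the filter on low values. Of these 28 were higher and 7 lower (22.8% and 5.69%), beside 17.7% and 5.41% of all tested genes, and their median difference was 0.12. With trimmed-mean scaling 18 were higher and 18 lower. In the lists where limma called 0 genes lower, a few were lower at an unadjusted p under 0.05, namely 1 regulator, 1 NADPH supply or detoxification target, 2 genes of glutathione synthesis, reduction and turnover and 1 of peroxide and superoxide removal.

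**Figure D4:**
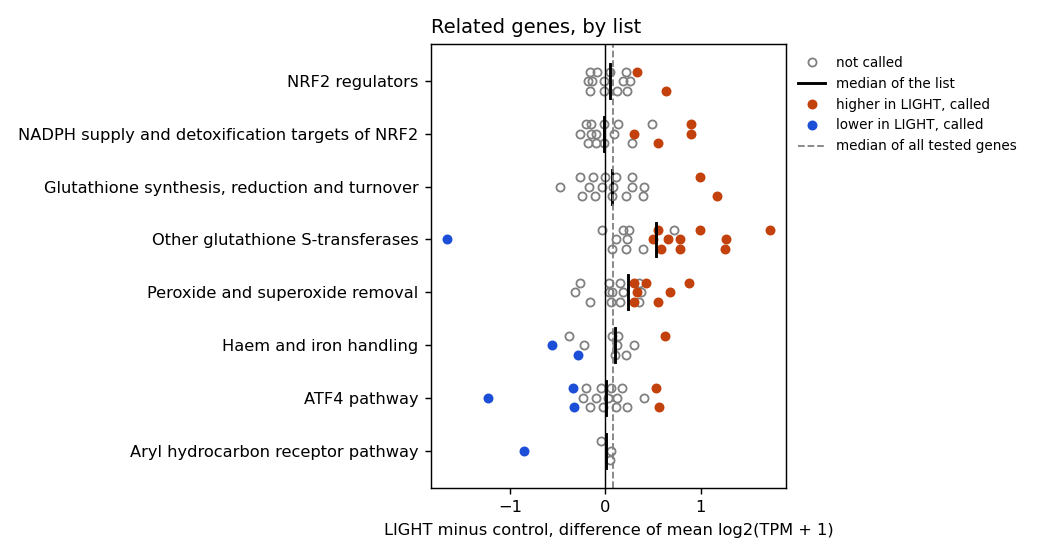
Difference between LIGHT and control in mean log2(TPM + 1) for each tested gene of the 8 lists, with called genes filled (orange higher, blue lower), a black bar at the list median and a dashed line at the median of all tested genes. The other glutathione S-transferases have the highest median, at 0.53, with Gsta1 alone on the far left.

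The Nfe2l2 transcript did not differ detectably. It was at 115, 97.5 and 123 TPM in LIGHT libraries, against 122, 102 and 114 TPM in control libraries (limma adjusted p = 0.940). Among the regulators 2 of 15 tested rose (13.3%, beside 17.7% of all tested genes) and 0 fell. With trimmed-mean scaling 1 rose and 2 fell, the falls being those of Cul3, the ubiquitin ligase scaffold that KEAP1 binds, and Sqstm1, and after quantile normalization 2 rose and Sqstm1 fell. Keap1 was at 50.3, 45.7 and 47.9 TPM in LIGHT libraries, against 39.3, 40.7 and 33.6 TPM in control libraries (difference 0.34, SE 0.10, limma adjusted p = 0.0429). Keap1 was no longer called in 9 of 15 other settings, which include the omission of any 1 library. Nfe2l1, a related factor that controls proteasome genes, was at 140, 112 and 132 TPM in LIGHT libraries, against 96.3, 78.2 and 72.7 TPM in control libraries (difference 0.64, SE 0.13, limma adjusted p = 0.0133), and passed in every setting tried. Bach1, a repressor that competes with NRF2, was at 10.2 ± 1.6 TPM in LIGHT and 8.81 ± 0.86 TPM in control tumours and was not called. Sqstm1, which encodes p62, an NRF2 target that also sequesters KEAP1, was at 206 ± 6.2 TPM in LIGHT and 234 ± 12 TPM in control tumours. It was not called as deposited (limma adjusted p = 0.122) and was called lower under both other scalings. Syvn1, a ubiquitin ligase of the endoplasmic reticulum that can target NRF2, was at 37.6 ± 1.0 TPM in LIGHT and 31.8 ± 0.8 TPM in control tumours (limma adjusted p = 0.0614).

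Of 17 further NRF2 targets for NADPH supply and detoxification, 4 rose (23.5%, beside 17.7% of all tested genes) and 0 fell. Their median difference was -0.01. Ephx1, microsomal epoxide hydrolase, was at 88.0, 82.3 and 81.9 TPM in LIGHT libraries, against 39.7, 51.0 and 43.7 TPM in control libraries (difference 0.90, SE 0.10, limma adjusted p = 0.00225). Aox1, aldehyde oxidase, was at 3.73 ± 0.32 TPM in LIGHT and 1.53 ± 0.22 TPM in control tumours (limma adjusted p = 0.00319). Akr1c13, an aldo-keto reductase, was at 4.41 ± 0.60 TPM in LIGHT and 2.68 ± 0.30 TPM in control tumours. Cbr1, carbonyl reductase 1, was at 28.8 ± 1.0 TPM in LIGHT and 23.1 ± 0.1 TPM in control tumours. The Akr1c13 call was lost in 4 of 14 other settings and the Cbr1 call in 6 of 15, including for each the omission of control replicate 1 or control replicate 2, without either of which 2 rises were left. The 13 others, with the pentose phosphate enzymes G6pdx, Pgd, Taldo1 and Tkt among them, were not called. With trimmed-mean scaling 3 rose and 5 fell, and the genes that fell were G6pdx, Osgin1, Pgd, Tkt and Ugdh, named after their values were seen.

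In glutathione synthesis, reduction and turnover 2 of 18 tested genes rose (11.1%, beside 17.7% of all tested genes) and 0 fell. With the other scalings the same 2 rose and 2 fell, Gsr and Gss with trimmed-mean scaling and Gsr and Cth, which makes cysteine from cystathionine, after quantile normalization. Both genes that rose act on glutathione or its peptides outside the cell. Ggt5, a gamma-glutamyltransferase that cleaves glutathione and its conjugates, was at 3.30, 3.78 and 3.22 TPM in LIGHT libraries, against 0.88, 1.07 and 0.94 TPM in control libraries (difference 1.17, SE 0.11, limma adjusted p = 0.00124). Anpep, aminopeptidase N, was at 37.0 ± 5.8 TPM in LIGHT and 18.1 ± 2.7 TPM in control tumours (difference 0.99, SE 0.14, limma adjusted p = 0.00443). Anpep was called in every setting tried. Ggt5 was called in every setting that tested it, but did not pass the filter at 5 TPM. Gsr, glutathione reductase, was at 48.5 ± 2.9 TPM in LIGHT and 57.7 ± 6.0 TPM in control tumours, without overlap, and was not called as deposited (limma adjusted p = 0.120). Oplah, which recycles oxoproline, was at 7.49 ± 1.30 TPM in LIGHT and 5.41 ± 0.37 TPM in control tumours (limma adjusted p = 0.0654) and was not called.

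Of 20 other glutathione S-transferases tested, 10 rose and 1 fell (50% and 5%, beside 17.7% and 5.41% of all tested genes). Their median difference was 0.53, beside 0.09 over all tested genes. The gene that fell was Gsta1, another alpha-class gene, at 29.5, 30.0 and 23.3 TPM in LIGHT libraries, against 83.9, 63.5 and 130 TPM in control libraries (difference -1.66, SE 0.24, limma adjusted p = 0.00448). It was called in every setting tried. Gsta1 and Gsta2 are close paralogs and can share reads, and Gsta2 was at 12.2 ± 6.9 TPM in LIGHT and 9.06 ± 1.33 TPM in control tumours and was not called. Mgst1, a membrane-bound transferase and peroxidase, was at 47.4, 46.6 and 49.0 TPM in LIGHT libraries, against 33.3, 34.5 and 32.2 TPM in control libraries (difference 0.50, SE 0.08, limma adjusted p = 0.00492). The theta-class genes Gstt1 and Gstt3 were at 4.67 ± 1.44 and 5.39 ± 0.77 TPM in LIGHT tumours, against 1.35 ± 0.40 and 2.70 ± 0.28 TPM in control tumours. The pi-class genes Gstp2 and Gstp3 were at 37.3 ± 6.3 and 22.4 ± 1.4 TPM in LIGHT tumours, against 15.5 ± 6.1 and 6.62 ± 3.22 TPM in control tumours. Their abundant paralog Gstp1, which can share reads with them, was at 552 ± 20 TPM in LIGHT and 528 ± 59 TPM in control tumours and was not called. The remaining calls were Gstm2, Gstm4, Gstk1, Mgst2 and Mgst3. Gstm3, Gstm7 and Gstt4 were too low to be tested. The number that rose was 5 without LIGHT replicate 3 and 6 after quantile normalization. Gstm2 was at 22.5, 40.3 and 41.1 TPM in LIGHT libraries, against 14.3, 16.7 and 17.9 TPM in control libraries, and Mgst3 at 42.2, 88.5 and 54.9 TPM in LIGHT libraries, against 33.7, 32.3 and 35.7 TPM in control libraries. Summed skeletal muscle markers were 5012, 8912 and 6241 TPM in LIGHT libraries, against 5608, 3241 and 3492 TPM in control libraries. The part of muscle in the levels of Gstm2 and Mgst3 was not tested.

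**Figure D5:**
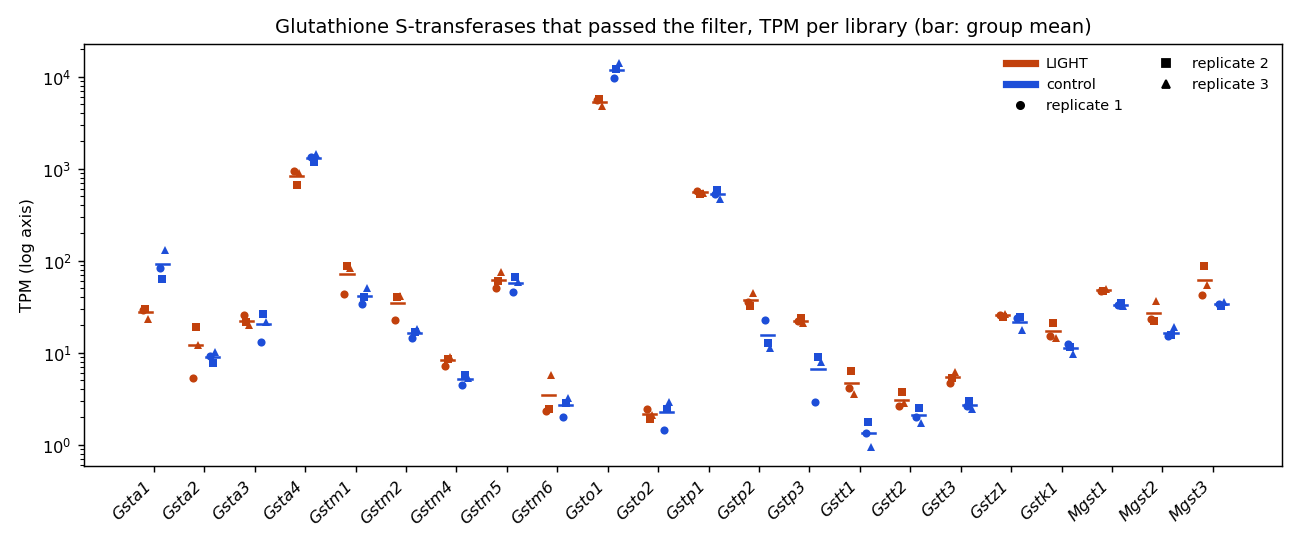
TPM per library (log axis) of the 22 glutathione S-transferases that passed the filter, LIGHT (orange) left of control (blue), with a bar at the group mean. Gsto1, Gsta4 and Gsta1 are lower in each LIGHT library, while several of the less abundant theta, pi, mu and microsomal genes are higher.

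In peroxide and superoxide removal 7 of 20 tested genes rose (35%, beside 17.7% of all tested genes) and 0 fell. The median difference of this list was 0.24. Prdx6, a peroxiredoxin that uses glutathione to reduce phospholipid hydroperoxides, was at 210, 261 and 299 TPM in LIGHT libraries, against 131, 142 and 140 TPM in control libraries (difference 0.88, SE 0.13, limma adjusted p = 0.00447). Gpx1 was at 554, 581 and 585 TPM in LIGHT libraries, against 465, 466 and 461 TPM in control libraries (difference 0.30, SE 0.07, limma adjusted p = 0.0196). Gpx8, of the endoplasmic reticulum, and Txnip, an inhibitor of thioredoxin, were at 26.5 ± 2.1 and 74.7 ± 3.8 TPM in LIGHT tumours, against 17.9 ± 3.4 and 47.4 ± 14.5 TPM in control tumours. Cat, Prdx2 and Gpx4 also passed, with adjusted p between 0.0442 and 0.0487. The NRF2 targets Prdx1 and Txn1 in this list were not called. The number that rose depended on each library, at 4 without LIGHT replicate 1, 2 without LIGHT replicate 2, control replicate 1 or control replicate 2, and 1 without LIGHT replicate 3 or control replicate 3. Under each of the other scalings 1 gene, Txnrd3, fell. The number that rose was 2 under the trimmed-mean factors, 3 under quantile scaling or with no filter, and 4 without the mean-variance trend. Prdx6 was called in every setting, Gpx1 was not called in 7 of 15 and Txnip was not called in 8 of 15.

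In haem and iron handling, around Hmox1, 1 of 11 tested genes rose and 2 fell. These shares were 9.09% and 18.2%, beside 17.7% and 5.41% of all tested genes. Ftl1, the ferritin light chain and an NRF2 target, was at 1795, 1970 and 1701 TPM in LIGHT libraries, against 1141, 1273 and 1121 TPM in control libraries (difference 0.63, SE 0.09, limma adjusted p = 0.00466), and passed in every setting. Fth1, the heavy chain, was at 2454 ± 104 TPM in LIGHT and 3208 ± 513 TPM in control tumours, without overlap. It was not called as deposited (limma adjusted p = 0.0705), but was called lower without control replicate 1 and with the replicate block. The transferrin receptor Tfrc, which imports iron, was at 14.6, 14.5 and 15.0 TPM in LIGHT libraries, against 26.8, 21.0 and 19.1 TPM in control libraries (difference -0.56, SE 0.13, limma adjusted p = 0.0201). Blvra, biliverdin reductase, which acts after haem oxygenase, fell slightly (35.3 ± 2.1 TPM in LIGHT and 43.3 ± 1.6 TPM in control tumours, limma adjusted p = 0.0432). Neither fall was called without LIGHT replicate 2 or LIGHT replicate 3, and that of Blvra was also lost without control replicate 1, 2 or 3.

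Slc7a11 and Chac1 are also targets of ATF4, the factor of the integrated stress response. In the ATF4 list 2 of 18 tested genes rose and 3 fell, with a median of 0.01. These shares were 11.1% and 16.7%, beside 17.7% and 5.41% of all tested genes. Chac1, which degrades glutathione inside the cell, was at 21.2, 23.9 and 23.1 TPM in LIGHT libraries, against 48.6, 54.2 and 61.7 TPM in control libraries (difference -1.23, SE 0.11, limma adjusted p = 0.000932). It was called in every setting tried. Ddit3 and Trib3, which act under endoplasmic reticulum stress, were at 73.3 ± 10.7 and 21.0 ± 0.9 TPM in LIGHT tumours, against 50.2 ± 5.2 and 14.0 ± 2.6 TPM in control tumours, and both rose. Neither rise was called without control replicate 2 or control replicate 3. The Trib3 call was also lost without LIGHT replicate 2 or LIGHT replicate 3. The serine pathway genes Shmt2 and Psat1 fell, at 103 ± 2.0 and 86.0 ± 4.7 TPM in LIGHT tumours, against 131 ± 10 and 109 ± 8.8 TPM in control tumours, and Atf4 did not differ detectably (limma adjusted p = 0.780). Without LIGHT replicate 2, LIGHT replicate 3, control replicate 1 or control replicate 2 the falls numbered 1.

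Nqo1 is also a target of the aryl hydrocarbon receptor. In that list 1 of 4 tested genes fell (25%, beside 5.41% of all tested genes) and 0 rose. At an unadjusted p under 0.05, 0 were higher as well. Tiparp, a target that feeds back on the receptor, was at 14.7, 12.4 and 14.1 TPM in LIGHT libraries, against 32.5, 21.5 and 23.9 TPM in control libraries (difference -0.85, SE 0.16, limma adjusted p = 0.00934). Ahr, the receptor, was at 10.4 ± 1.1 TPM in LIGHT and 9.85 ± 0.28 TPM in control tumours. Arnt and Cyp1b1 were not called, and Cyp1a1 and Ahrr did not exceed 0.20 TPM in any library.

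Among 13157 tested genes outside the 10, the gene whose log2(TPM + 1) followed Gsto1 most closely over the 6 libraries was Psca (Pearson r = 0.998), a surface protein of squamous and other epithelia, at 1073, 1184 and 867 TPM in LIGHT libraries, against 2759, 4446 and 5122 TPM in control libraries. For Gpx2 it was Xbp1 (r = 0.997), a factor of the unfolded protein response, and for Slc7a11 it was Tpd52 (r = 0.999). With 6 libraries and so many genes, high values are easily reached, and the best value was at least 0.953 for each of the 10.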

How the data were processed

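The authors deposited TPM with 2 decimals, and per the file headers each library has its own column. RNA was depleted of ribosomal RNA, per the labels' protocols. HISAT, Bowtie2 and GRCm38.p6 are named, without role, in the submitters' processing notes, and no quantifier, annotation or filter is named in the labels. Groups and replicate numbers come from the labels, which tie no library to an animal, so p-values cover the spread among these libraries, which may be technical. No 2 libraries were identical.

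A gene was tested if 3 or more libraries reached 1 TPM, which left 13167. On the log2(TPM + 1) scale they were fitted with R 4.3.3 and limma 3.58.1 (mean-variance trend, 2-sided, Benjamini-Hochberg adjusted p under 0.05). Alternatives were pseudocounts of 0.1 and 0.5, no filter, a filter at 5 TPM, trimmed-mean (TMM) and quantile scaling, each library left out, a replicate block, no trend and robust limma. The 10 genes, lists and tests were chosen with earlier results of these data known. Named outside the 10 are Tnfsf14, Nfe2l2, Keap1, Bach1, up to 4 genes per list by smallest p, and paralogs or partners chosen after seeing values. Gene positions are from RefSeq, where all 10 matched. Figures used matplotlib 3.10.9.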

Additional observations from a re-analysis of the deposited data

How the results depend on the processing

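Calls were recomputed under 15 other settings. With all libraries as deposited, 2325 genes were called higher and 712 lower, 28 and 7 among the related lists, and 0 and 4 among the 10 genes. After quantile normalization 1399 genes were higher and 1811 lower, with 11 lower in the related lists. With trimmed-mean scaling 2005 genes were lower, and the related lists held 18 higher and 18 lower. Leaving out 1 library gave 1264 to 2027 higher and 325 to 791 lower genes, 14 to 24 higher and 3 to 7 lower related genes, and 0 to 1 higher and 2 to 4 lower among the 10, lowest for the 10 without control replicate 3. With the replicate block 1 of the 10, Gpx2, was called higher, and 4 genes of glutathione synthesis, reduction and turnover rose in place of 2. The same-numbered libraries deviated together with correlations of 0.37, 0.24 and 0.01, so the numbers were not taken to pair the samples, and libraries did not all correlate best with their own number. The longer motif, with A or G before the core, was found for 1 of the 7 genes with a promoter window, against 3 for the core. Among all genes with a window, 1947 of 27025 had the longer motif and 14.0% had the core. None of the 40 called genes of the 8 lists, the 10 genes and Tnfsf14 changed sign in any of the settings. Over all settings, 57 calls were lost and 5 gained among 35 genes outside the 10 that were named by rule, and 6 were lost and 2 gained among the 10. The cause of these changes was not tested. TPM keep no depth, so what depth limits could not be set, and with 3 libraries a group a small difference such as that of Srxn1 is not shown to be absent.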

Other observations

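Within the control group, replicate 3 held the highest level of 7 of the 10 genes (Gsto1, Gsta4, Gclc, Nqo1, Hmox1, Srxn1 and Gpx2), and also of Cbr3, Me1, G6pdx and Glrx, which were picked out with their values in view. Other genes of the lists went the other way. Akr1b8, Osgin1, Aox1, Abcc1, Prdx1 and Gstp1, also picked with their values in view, were lowest in replicate 3 of that group. No share over all genes is given beside these. Cbr3, a carbonyl reductase induced by NRF2, was at 24.2, 38.0 and 36.1 TPM in LIGHT libraries, against 18.9, 19.3 and 31.9 TPM in control libraries. Me1, the cytosolic malic enzyme, was at 54.5, 68.6 and 86.5 TPM in LIGHT libraries, against 49.6, 55.0 and 65.9 TPM in control libraries. Nqo1, Cbr3, Me1 and Gpx2 were each lowest in replicate 1 of the LIGHT group, and neither Cbr3 nor Me1 was called (limma adjusted p = 0.178 and 0.292). In the control group Gclm, Txnrd1 and Slc7a11 were instead highest in replicate 1.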
